A study of Homo sapiens with 6 samples.

Results

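Genes of cholesterol synthesis, of its control by the sterol-sensing transcription factors, and of cholesterol transport and efflux were followed in U87MG, a line grown from a human glioblastoma, whose cells carried hairpin RNAs brought in by lentivirus. The list held 31 genes, and a gene was taken where the array annotation gave a row of its symbol alone, current or older. This found 27 of the 31, among 22411 genes with such a row. They comprised 17 of 18 enzymes of the mevalonate and sterol steps, all 5 genes of SREBP control, 2 of 3 genes of transport inside the cell and 3 of 5 genes of efflux and its LXR control. Each of the 27 had a single row. FDFT1 and NR1H2 had no listed row, NPC2 and MYLIP lay on rows shared with another symbol, and none of these 4 is given a value. Of the 27, 26 passed the filter on dim features (a mean over the 6 arrays at or above 3.98, log2), and ABCG1 did not.

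All 6 samples were U87MG cells grown for 5 days after drug selection was complete. They fell into 3 groups of 2 arrays: cells with a hairpin against GFP (shGFP, the control), cells with the hairpin named sh50 and cells with the hairpin named sh52. The series title names SAT1, a polyamine acetyltransferase, as the gene under study, but the sources used here state no target for either hairpin. The labels do not say whether replicates 1 and 2 were separate infections or cultures, so a p-value measures the spread between these samples only, which may be technical. Values were deposited as RMA expression values from Affymetrix human transcriptome arrays on a log scale, read here as log2 without a stated base. They are levels of probes over a whole culture, so levels of different genes cannot be compared, and a change in each cell cannot be told apart from a change in the share of cells.

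The array labelled sh52 replicate 1 stood apart from the others. SAT1 was at 10.83 (log2) there, above the other 5 arrays. It was at 9.45 and 8.96 with shGFP, 9.36 and 8.35 with sh50 (replicates 1 and 2) and 7.84 on sh52 replicate 2. The level on sh52 replicate 1 goes against the label if the hairpin targets SAT1. That on sh50 replicate 1 lay between the controls, so it was not lower there either. Other genes differed in whether the arrays labelled sh52 stood together. NCEH1 was at 6.95 and 7.01 on them and from 9.86 to 11.54 on the others. INSIG2 was at 10.96 and 9.07 on them. Whether the label of sh52 replicate 1 is right was not tested. The median absolute difference of this array from the median of the other arrays was 0.25 (log2), against 0.15 to 0.19 for the rest, and the mean of 8 spike-in controls was 9.83 against 8.88 to 9.26. A list of 9 measured genes of the low oxygen response had a median difference from the control mean of 2.11 there, against 0.29 to 0.76 on the other hairpin arrays, and 10 mitotic genes lay at -1.83 there and between -2.36 and -0.96 on the others. The part of these differences in the results below was not tested, and gene estimates for the mean of both hairpins that move by over 1.5 times without that array are given both ways. Of the glioma, glial and mesenchymal markers, VIM (15.5 to 16.1), CD44 (13.4 to 14.96) and FN1 (17.4 to 18.9) were high on every array. SPARC (13.4 to 15.3), CHI3L1 (7.0 to 11.1), SLC1A3 (6.5 to 8.4) and NES (6.2 to 7.7) also passed the filter. GFAP (4.41 to 4.56) was close to the filter and OLIG2 and SOX2 lay below it. The 5 measured blood markers and 3 hepatocyte markers lay below the filter, with medians from 3.10 to 3.37 and from 3.29 to 3.64 over the arrays. Of 4 epithelial markers EPCAM (4.72 to 5.31) and KRT18 (3.91 to 4.13) passed the filter. Of 4 neuronal markers SNAP25 (7.35 to 9.78), SYT1 (5.52 to 6.47) and GAD1 (5.31 to 5.875) did.

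Cholesterol is built from acetyl-CoA through mevalonate, isoprenoid diphosphates, squalene and lanosterol. When membranes of the endoplasmic reticulum hold little sterol, SCAP carries the transcription factors SREBP1 and SREBP2 (genes SREBF1 and SREBF2) to the Golgi, where proteases release the active part, which switches on the synthesis genes. INSIG1 and INSIG2 hold SCAP back when sterol is plentiful, and INSIG1 is itself an SREBP target. In the opposite direction the oxysterol receptors LXR (NR1H3 and NR1H2) switch on efflux pumps such as ABCA1 and ABCG1, and MYLIP, a ligase that removes lipoprotein receptors.

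SREBPs act beside the factor NF-Y, so the promoters of the members were read for their motifs. Windows from 250 bases before to 50 after each start, from RefSeq (GRCh38.p14), existed for 27 of the 31 listed genes, 37 windows in all, and 7 genes had more than 1. They are not the same 27 as those with an array value. MYLIP, NPC2 and NR1H2 had a window but no value, and ACAT2, SQLE and ABCG1 had a value but no window. The sterol response element core TCACNCCAC, on either strand, was present in 1 of the 37 windows (2.7%), that of SREBF2, and in 1.13% of all 35116 windows in the table. The NF-Y box CCAAT was present on either strand in 15 of 20 windows of the synthesis enzymes (75%), in 2 of 7 of the efflux and LXR genes (28.6%) and in 34.6% of all windows. Most of these 7 windows belong to NR1H3. Counted by gene, the box was present in 13 of 15 synthesis genes (86.7%), 2 of 4 efflux and LXR genes (50%) and 39.7% of all genes. The GC box GGGCGG was present on either strand in 18 of the 20 windows (90%), in 5 of the 7 (71.4%) and in 45% of all windows. By gene it was present in 14 of 15 (93.3%), 4 of 4 (100%) and 48.3% of all genes. A match is only a string of letters, and windows of 1 gene can overlap. SREBF2 (the factor itself, with the sterol element), MSMO1 and HMGCS1 (which were highest together on the array labelled sh52 replicate 1) and DHCR7 (higher in replicate 2 of each group) are shown, with CCAAT, its reverse complement ATTGG and TCACNCCAC in capitals. None of these matches overlapped a GC box.
SREBF2 (chr22:41832855-41833154, plus strand): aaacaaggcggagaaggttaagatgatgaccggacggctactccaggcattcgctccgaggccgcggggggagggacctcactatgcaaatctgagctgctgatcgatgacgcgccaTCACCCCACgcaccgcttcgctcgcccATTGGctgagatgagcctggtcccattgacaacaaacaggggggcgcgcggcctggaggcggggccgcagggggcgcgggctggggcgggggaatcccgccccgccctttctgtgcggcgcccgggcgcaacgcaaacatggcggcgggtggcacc
MSMO1 (chr4:165327419-165327718, plus strand): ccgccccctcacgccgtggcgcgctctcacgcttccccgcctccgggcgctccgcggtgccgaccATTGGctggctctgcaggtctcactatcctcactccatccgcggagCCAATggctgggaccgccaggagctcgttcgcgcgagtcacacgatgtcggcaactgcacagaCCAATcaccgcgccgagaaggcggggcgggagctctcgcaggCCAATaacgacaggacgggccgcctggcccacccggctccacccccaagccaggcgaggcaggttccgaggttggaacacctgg
HMGCS1 (chr5:43313363-43313662, minus strand): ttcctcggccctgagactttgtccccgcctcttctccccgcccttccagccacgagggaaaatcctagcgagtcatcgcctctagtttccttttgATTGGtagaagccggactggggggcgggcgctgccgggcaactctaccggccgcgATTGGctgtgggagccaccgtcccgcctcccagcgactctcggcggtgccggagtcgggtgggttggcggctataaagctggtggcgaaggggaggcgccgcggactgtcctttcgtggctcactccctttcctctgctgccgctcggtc
DHCR7 (chr11:71448344-71448643, minus strand): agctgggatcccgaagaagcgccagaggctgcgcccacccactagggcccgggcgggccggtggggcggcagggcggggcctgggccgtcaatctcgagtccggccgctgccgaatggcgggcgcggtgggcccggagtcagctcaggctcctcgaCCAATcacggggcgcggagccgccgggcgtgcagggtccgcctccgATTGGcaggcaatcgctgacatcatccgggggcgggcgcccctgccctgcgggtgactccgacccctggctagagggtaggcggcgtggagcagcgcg
HMGCS1 and DHCR7 each have another window, not shown, with 0 CCAAT matches. The MSMO1 window held 4 CCAAT matches, the HMGCS1 and DHCR7 windows shown 2 each and the SREBF2 window 1. MVK and NSDHL, not shown, held the most, 5 each, and EBP, FDPS, IDI1 and MVD held up to 3. Whether this count goes with the differences in level given below was not tested. NPC1, INSIG2, ABCA1, CYP51A1, PMVK, SCAP, SREBF1 and NR1H2 had none in their windows. INSIG1 and LSS had 1, as had NR1H3, SC5D and TM7SF2.

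The question of the first comparison is whether these genes differ between the hairpins and the control. When both hairpins were averaged and set against shGFP, no member was called at an adjusted p of 0.05 (limma, Benjamini-Hochberg over 33764 transcript clusters), where the share called over all clusters was also 0%. At an unadjusted p under 0.05, 1 member of 26 was higher (ABCA1; 4.35% of all clusters) and 0 were lower (4.83% of all). The 17 synthesis enzymes had a median log2 difference of 0.13, with 12 higher and 5 lower estimates, and the 5 SREBP control genes had a median of 0.34, all 5 estimates higher. Among these 5, INSIG1 was at -0.25 without sh52 replicate 1. SREBF1 and SREBF2 were at 0.23 and 0.12 without sh50 replicate 2. The 3 efflux and LXR genes had a median of 0.052. A median of 3 genes is the value of 1 of them, here NR1H3. Without sh50 replicate 2 the medians of the enzymes and of the efflux and LXR genes were 0.048 and -0.018. Over all clusters tested the median was -0.0045, and 49.2% of estimates were above 0. For 2 members, SQLE and TM7SF2, all 4 hairpin arrays lay above both controls (7.69% of the 26; 8.98% of all clusters), and for 0 all 4 lay below both (10.1% of all). Without the array labelled sh52 replicate 1, the 3 others lay above both controls for SQLE, TM7SF2 and SCAP (12.4% of all clusters) and below both for HSD17B7 (13.9% of all). These shares of members are near or under the background. The comparisons of sh50, of sh52 and of their mean share the control arrays, so their values are not independent.

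**Figure D1:**
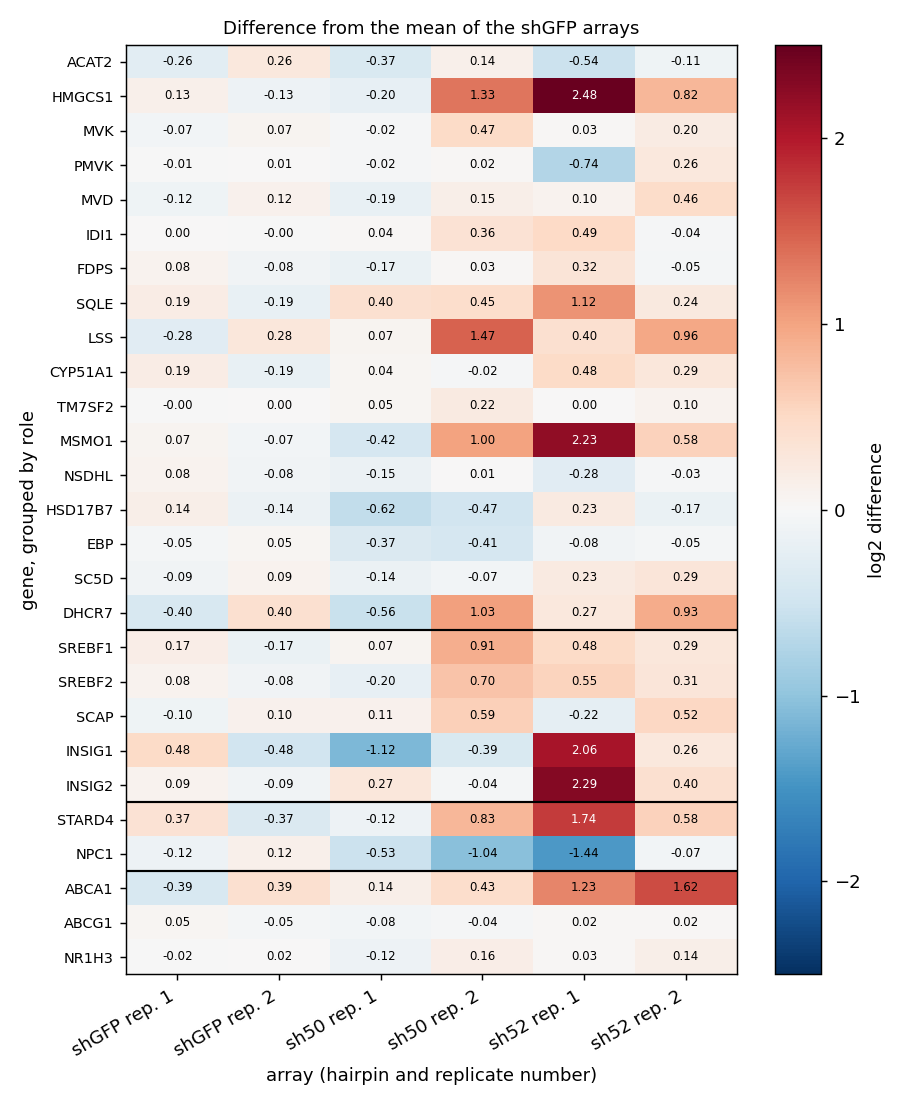
Log2 difference of each of 27 genes (rows, grouped by role and divided by lines: synthesis, SREBP control, transport, efflux and LXR) from the mean of the shGFP arrays, on each of the 6 arrays (columns). The strongest colours are on the array labelled sh52 replicate 1, where HMGCS1 reached 2.48, INSIG2 2.29 and MSMO1 2.23, and NPC1 stood at -1.44.

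Among the enzymes of the mevalonate steps, HMGCS1 differed most. It makes HMG-CoA, the precursor of mevalonate. HMGCS1 stood at 8.49 and 8.23 (log2) with shGFP, 8.17 and 9.69 with sh50 and 10.84 and 9.19 with sh52 (replicates 1 and 2). Both sh52 arrays and sh50 replicate 2 lay above the controls, and sh50 replicate 1 lay just below them. The difference of the mean of both hairpins was 1.11 ± 0.60 (SE; 95% interval -0.37 to 2.59; limma, adjusted p = 0.645), and 0.70 without sh52 replicate 1. The other mevalonate enzymes had smaller estimates. IDI1, which isomerises isopentenyl diphosphate, stood at 7.05 and 7.04 with shGFP, 7.08 and 7.41 with sh50 and 7.54 and 7.01 with sh52, so 3 of 4 hairpin arrays were above both controls. Its difference was 0.21, and 0.081 without sh52 replicate 1. FDPS, which makes farnesyl diphosphate, ranged over 0.49 across the 6 arrays and differed by 0.033 ± 0.17, and by -0.059 without sh52 replicate 1. MVK, PMVK and MVD, the kinases and the decarboxylase of mevalonate, differed by 0.17, -0.12 and 0.13, and MVD by 0.22 without sh52 replicate 1. PMVK was at 7.03 on sh52 replicate 1 and between 7.75 and 8.03 on the other 5 arrays, and without that array its difference was 0.13. ACAT2, which condenses acetyl-CoA, differed by -0.22 ± 0.25, and by -0.11 without sh52 replicate 1. It was highest on shGFP replicate 2 (7.93) and lowest on sh52 replicate 1 (7.13).

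In the squalene and sterol steps, SQLE, MSMO1, LSS and DHCR7 had the largest estimates. SQLE, the squalene epoxidase that is an early committed step of sterol synthesis, stood at 10.91 and 10.53 with shGFP, 11.12 and 11.17 with sh50 and 11.84 and 10.96 with sh52. The hairpin arrays did not overlap the controls, though sh52 replicate 2 lay just above shGFP replicate 1. Its difference was 0.55 ± 0.28 (SE; limma, adjusted p = 0.613), and 0.33 without sh52 replicate 1. MSMO1, the methyl sterol oxidase, stood at 10.62 and 10.47 with shGFP, 10.12 and 11.55 with sh50 and 12.77 and 11.13 with sh52. Its order over the arrays was that of HMGCS1, with sh52 replicate 1 highest, then sh50 replicate 2, and sh50 replicate 1 lowest. The difference was 0.85 ± 0.57 (adjusted p = 0.732), and 0.44 without sh52 replicate 1. LSS closes lanosterol from squalene epoxide. It stood at 6.43 and 7.001 with shGFP, 6.78 and 8.19 with sh50 and 7.11 and 7.68 with sh52, and differed by 0.72 ± 0.43 (adjusted p = 0.688). LSS was not highest on sh52 replicate 1, and its difference without that array was 0.87; without sh50 replicate 2 it was 0.37. DHCR7, the last reductase of the pathway, stood at 9.40 and 10.21 with shGFP, 9.25 and 10.83 with sh50 and 10.07 and 10.73 with sh52. Both groups of hairpin arrays overlapped the controls, and the difference was 0.42 ± 0.50, and 0.012 without shGFP replicate 1.

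The remaining sterol enzymes differed by at most 0.26 either way. CYP51A1, the lanosterol demethylase, differed by 0.20 ± 0.16, TM7SF2 by 0.094 ± 0.13 and SC5D, a desaturase, by 0.079 ± 0.13. TM7SF2, a sterol reductase, lay above both controls on all 4 hairpin arrays, but its levels ran only from 4.31 to 4.54. NSDHL, EBP and HSD17B7, a sterol dehydrogenase, an isomerase and a keto-reductase of the late steps, differed by -0.11, -0.23 and -0.26, and NSDHL by -0.049 without sh52 replicate 1. HSD17B7 and FDPS have close pseudogene copies, and cross-hybridisation was not tested.

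**Figure D2:**
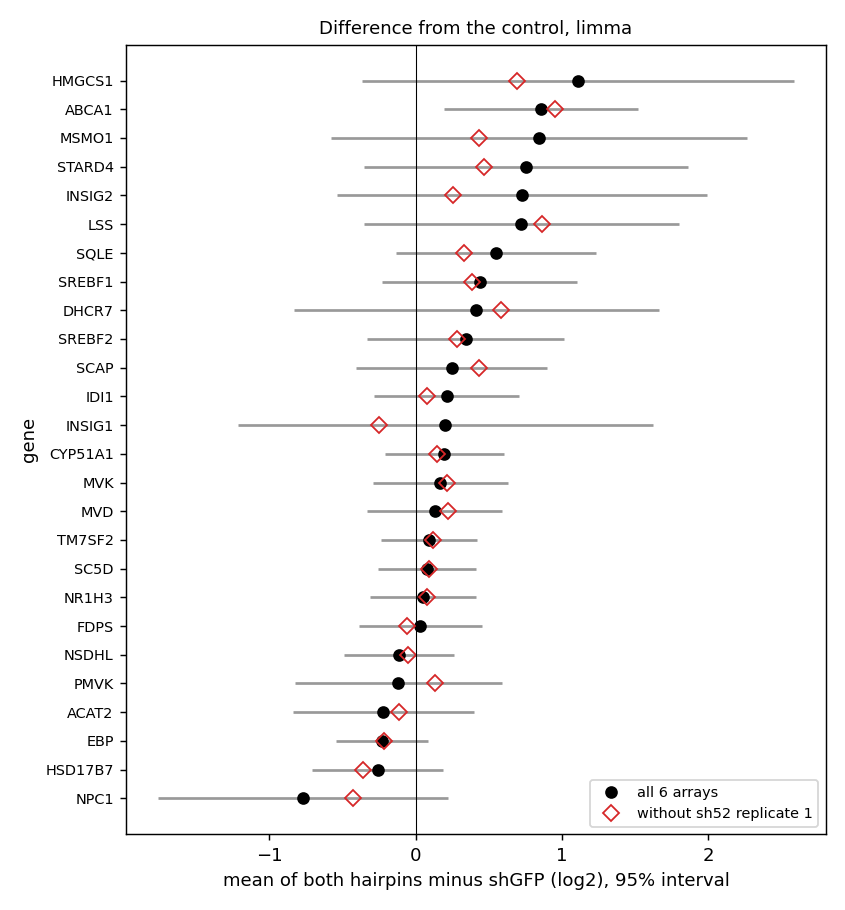
Difference of the mean of both hairpins from shGFP (x axis, log2) for each of 26 genes (y axis). Black points are limma estimates over all 6 arrays with 95% intervals, and red diamonds are estimates without the array labelled sh52 replicate 1. The interval of ABCA1 alone (0.19 to 1.52) did not reach 0, and the red diamonds of INSIG1 (-0.25), PMVK (0.13) and FDPS (-0.059) lie on the other side of 0 from their black points.

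Of the SREBP control genes, the retention factors INSIG1 and INSIG2 spread most. INSIG1 had the widest range of any member, 3.19, standing at 11.45 and 10.49 with shGFP, 9.84 and 10.58 with sh50 and 13.03 and 11.23 with sh52. Its level on sh52 replicate 1 was far above the controls, that on sh50 replicate 1 was below both, and the other hairpin arrays lay between the controls. The mean of both hairpins differed by 0.20 ± 0.57 (SE), and by -0.25 without sh52 replicate 1. INSIG2 stood at 8.76 and 8.58 with shGFP, 8.94 and 8.63 with sh50 and 10.96 and 9.07 with sh52. Its level on sh52 replicate 1 stood well above the other 5 arrays, which ran from 8.58 to 9.07. The difference was 0.73 ± 0.51, and 0.26 without that array. SREBF1, whose product drives fatty acid as well as sterol genes, stood at 6.33 and 5.999 with shGFP, 6.24 and 7.08 with sh50 and 6.65 and 6.45 with sh52. SREBF2, whose product drives mainly sterol genes, stood at 6.41 and 6.24, 6.13 and 7.03, and 6.87 and 6.64 on the same arrays. For both factors sh50 replicate 2 was highest, both sh52 arrays were above the controls and sh50 replicate 1 was not. Their differences were 0.44 ± 0.27 and 0.34 ± 0.27 (limma, adjusted p = 0.697 and 0.781), and 0.23 and 0.12 without sh50 replicate 2. SCAP, the escort of both factors, stood at 7.87 and 8.08 with shGFP, 8.08 and 8.56 with sh50 and 7.75 and 8.49 with sh52, so it was lowest on the array where the INSIG genes were highest. Its difference was 0.25, and 0.43 without sh52 replicate 1.

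The transport genes had estimates of opposite sign. STARD4, a soluble carrier of sterol between membranes, stood at 8.76 and 8.02 with shGFP, 8.27 and 9.22 with sh50 and 10.13 and 8.97 with sh52. It differed by 0.76 ± 0.45 (SE; limma, adjusted p = 0.683), and by 0.47 without sh52 replicate 1. NPC1, the membrane protein through which cholesterol leaves the lysosome, stood at 13.34 and 13.58 with shGFP, 12.93 and 12.42 with sh50 and 12.03 and 13.39 with sh52. Both sh50 arrays and sh52 replicate 1 were below the controls, while sh52 replicate 2 lay between them. The difference was -0.77 ± 0.40 (adjusted p = 0.632), and -0.43 without sh52 replicate 1. STARD4 was above and NPC1 below both controls together only on sh50 replicate 2 and sh52 replicate 1. On sh50 replicate 1 NPC1 alone lay outside the controls, and on sh52 replicate 2 STARD4 alone did.

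ABCA1, the pump that hands cholesterol to lipid-poor apolipoprotein particles, differed most among the efflux genes. It stood at 10.55 and 11.34 with shGFP, 11.09 and 11.38 with sh50 and 12.17 and 12.57 with sh52. Both sh52 arrays were above every other array, while the sh50 arrays overlapped the controls. Averaged over both hairpins, ABCA1 differed by 0.86 ± 0.27 (SE; 95% interval 0.19 to 1.52; limma, adjusted p = 0.48), and by 0.95 without sh52 replicate 1. It was at 0.47 without shGFP replicate 1 and at 1.25 without shGFP replicate 2. ABCG1, a pump that hands cholesterol to larger lipoproteins, lay below the filter on these arrays, between 3.49 and 3.61, so it was not tested. NR1H3, which encodes the receptor LXR alpha, stood between 5.18 and 5.46 and differed by 0.052 ± 0.15, and by 0.080 without sh52 replicate 1. Set against the synthesis enzymes, the 3 efflux and LXR genes had a median of 0.084 with sh52, where the 17 enzymes had 0.23, and of 0.019 with sh50, where the enzymes had 0.0080. Both medians of the 3 genes are the values of NR1H3, a receptor gene, and do not describe the pumps. ABCA1 itself differed by 1.43 with sh52 and by 0.29 with sh50.

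**Figure D3:**
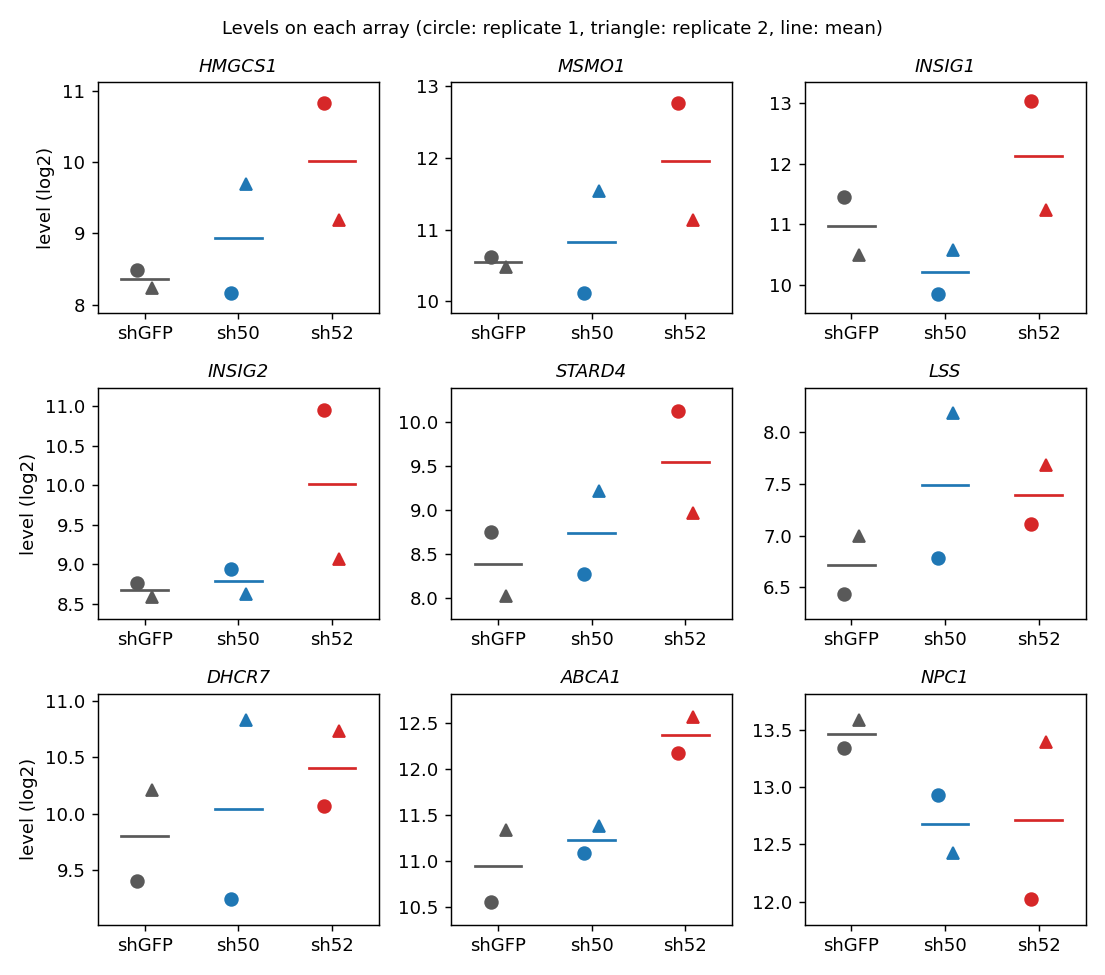
Levels (y axes, log2) of 9 genes on the 6 arrays by hairpin (x axes). Circles are replicate 1, triangles replicate 2 and lines the mean of 2 arrays. HMGCS1, MSMO1, INSIG1, INSIG2 and STARD4 have their highest circle at sh52, LSS and DHCR7 have the triangle above the circle in each of the 3 groups, and ABCA1 is high on both sh52 arrays.

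Each hairpin was then set against shGFP on its own. With sh50 against shGFP the adjusted calls were 0 among members and 0% over all clusters. At an unadjusted p under 0.05, 0 members were higher (4.06% of all clusters) and 2 of 26 were lower, HSD17B7 and EBP (7.69% of members, 4.19% of all). HSD17B7, a reductase of sterol demethylation, stood at 5.53 and 5.68 with sh50 against 6.30 and 6.01 with shGFP, and its difference was -0.55. EBP, the isomerase of the late steps, stood at 7.92 and 7.88 against 8.24 and 8.34, with a difference of -0.39. Both sh50 arrays lay below both controls for these genes. The largest estimates with sh50 were those of NPC1 (-0.78 ± 0.46, SE; limma, adjusted p = 0.763), LSS (0.77 ± 0.50), INSIG1 (-0.76 ± 0.66) and HMGCS1 (0.57 ± 0.69). The HMGCS1 and LSS values rested on sh50 replicate 2 and were -0.20 and 0.066 without it. INSIG1 was at -0.28 without shGFP replicate 1, and NPC1 at -0.53 without sh50 replicate 2. The median of the 17 enzymes was 0.0080, -0.15 without sh50 replicate 2 and 0.15 without sh50 replicate 1, so its sign followed the array kept.

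With sh52 against shGFP, 0 members and 0% of all clusters passed the adjusted threshold. At an unadjusted p under 0.05, ABCA1 alone was higher (3.85% of members, 4.27% of all clusters) and 0 members were lower (4.51% of all). ABCA1 differed by 1.43 ± 0.31 (SE; 95% interval 0.66 to 2.19; limma, adjusted p = 0.501), which is 2.69-fold if the base is 2. The estimates of HMGCS1, MSMO1 and INSIG2 were smaller without replicate 1, and that of ABCA1 was not. HMGCS1 differed by 1.65 ± 0.69, MSMO1 by 1.40 ± 0.66 and INSIG2 by 1.34 ± 0.59, and without sh52 replicate 1 they stood at 0.82, 0.58 and 0.40, while ABCA1 stood at 1.62. All 5 SREBP control genes had higher estimates (median 0.43), as did 13 of the 17 enzymes (median 0.23, where 50.1% of all clusters had a higher estimate). Of the SREBP control genes, SCAP was at -0.22 without sh52 replicate 2.

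The hairpins were also set against each other in the same fit, in which the control arrays contribute to the estimate of the spread. With sh52 against sh50, 0 members and 0% of clusters passed the adjusted threshold. HSD17B7, INSIG1 and ABCA1 were higher with sh52 at an unadjusted p under 0.05 (3 of 26 members, 11.5%, against 2.96% of all clusters), and 0 were lower (3.38% of all). INSIG1 differed by 1.92 ± 0.66 (SE; limma, adjusted p = 0.76), INSIG2 by 1.23 ± 0.59, ABCA1 by 1.14 ± 0.31 and MSMO1 by 1.12 ± 0.66. Without sh52 replicate 1 these stood at 1.02, 0.28, 1.34 and 0.29.

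The last comparison asks whether the members followed the replicate number. Replicate 2 was set against replicate 1 with the hairpin group as a term. Over all clusters 9 were called at an adjusted p of 0.05 (0.0267%), all lower in replicate 2, and 0 of them were members. The count was 0 without any 1 of the shGFP or sh50 arrays and 18 without either sh52 array. At an unadjusted p under 0.05, 5 of 26 members were higher in replicate 2 (19.2%, against 6.34% of all clusters), and 0 were lower (4.01% of all). They were DHCR7, LSS, ABCA1, ACAT2 and SCAP. DHCR7 was 0.81 higher in replicate 2 with shGFP, 1.58 with sh50 and 0.66 with sh52, giving 1.02 ± 0.22 (SE; limma, adjusted p = 0.325). LSS was 0.57, 1.41 and 0.57 higher, giving 0.85 ± 0.22 (adjusted p = 0.358). For both enzymes this estimate was larger than that of the hairpins against the control. ABCA1, ACAT2 and SCAP differed by 0.49 ± 0.16, 0.48 ± 0.13 and 0.47 ± 0.16 (adjusted p = 0.413, 0.359 and 0.427).

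Replicate 2 was above replicate 1 in all 3 groups for 11 of 26 members (42.3%), against 20.1% of all clusters. These were ACAT2, MVK, PMVK, MVD, LSS, TM7SF2, SC5D, DHCR7, SCAP, ABCA1 and NR1H3, of which 8 are synthesis enzymes. Some of these differences were small, 0.003 for TM7SF2 and 0.019 for PMVK with shGFP. Over all clusters 58.4% of estimates were above 0 in this comparison, and 52.9% after quantile normalization. Replicate 2 was below replicate 1 in all 3 groups for CYP51A1 and INSIG2 (7.69%, against 11.3% of all clusters). The others crossed between groups. Replicate 2 minus replicate 1 was -0.26 with shGFP, 1.53 with sh50 and -1.65 with sh52 for HMGCS1. For MSMO1 it was -0.14, 1.42 and -1.64. For INSIG1 it was 0.73 with sh50, -1.80 with sh52 and -0.96 with shGFP, and for STARD4 it was 0.95, -1.16 and -0.73. The mean over groups was -0.13 ± 0.59 (SE) for HMGCS1 and -0.12 ± 0.57 for MSMO1, near the shGFP values and far from those of sh50 and sh52.

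**Figure D4:**
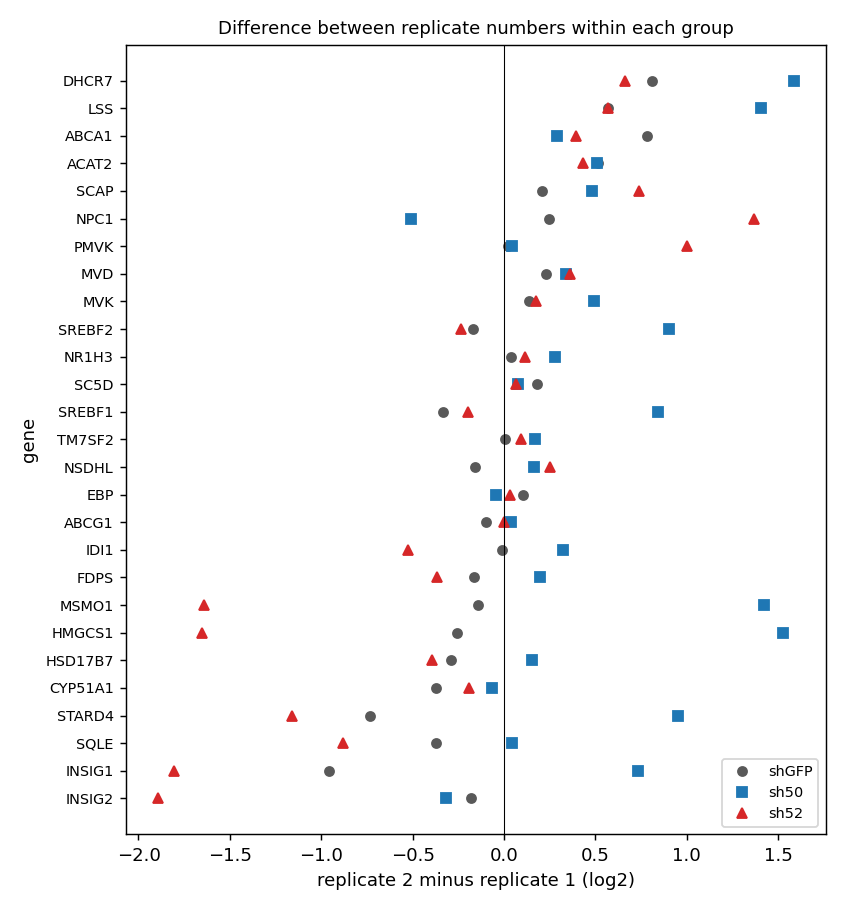
Replicate 2 minus replicate 1 (x axis, log2) within shGFP (circles), sh50 (squares) and sh52 (triangles) for 27 genes (y axis), ordered by the fitted difference. DHCR7 and LSS at the top lie right of 0 in each group, while HMGCS1 and MSMO1 have squares at 1.53 and 1.42 and triangles at -1.65 and -1.64.

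The 26 tested members had their highest level on different arrays. Of them 10 were highest on sh52 replicate 1 (38.5%, against 25.6% of all clusters): HMGCS1, IDI1, FDPS, SQLE, CYP51A1, MSMO1, HSD17B7, INSIG1, INSIG2 and STARD4. A further 8 were highest on sh50 replicate 2 (30.8%, against 19.4% of all clusters): MVK, LSS, TM7SF2, DHCR7, SREBF1, SREBF2, SCAP and NR1H3. Replicate 1 of sh50 was the lowest array for 10 members (20.3% of all clusters) and the highest for 0 (9.77% of all). Low oxygen genes were also highest on sh52 replicate 1, as given above, and their part in the levels of the 10 members was not tested.

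Other genes of lipid handling were taken from 6 lists of 66 genes, of which 58 had a row and 55 were tested. None was called at an adjusted p of 0.05 in the mean of both hairpins. At an unadjusted p under 0.05, 5 of the 55 were higher (4.35% of all clusters) and 3 lower (4.83% of all). All 4 hairpin arrays lay above both controls for 7 of the 55 (8.98% of all clusters) and below both for 4 (10.1% of all). Of 10 fatty acid synthesis genes, 8 had a higher estimate (median 0.17). SCD, the desaturase that makes oleate and an SREBP1 target, stood at 14.17 and 13.78 with shGFP, 12.72 and 14.87 with sh50 and 16.18 and 15.21 with sh52. Like HMGCS1 and MSMO1, it was highest on sh52 replicate 1 and lowest on sh50 replicate 1. It differed by 0.77 ± 0.63 (SE). LPIN1, a phosphatidate phosphatase, differed by 0.57 ± 0.33. Of 11 genes of SREBP cleavage and sterol-regulated degradation (median 0.14), MBTPS1, the Golgi protease that makes the first cut in SREBPs, stood at 9.64 and 10.10 with shGFP, 10.56 and 10.85 with sh50 and 10.57 and 10.55 with sh52. All 4 hairpin arrays were above both controls, with a difference of 0.76 ± 0.19 (limma, adjusted p = 0.469), and 0.76 without sh52 replicate 1. FAF2, of the degradation machinery, differed by -0.30 ± 0.23, and by -0.17 without sh52 replicate 1.

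Genes of storage, uptake and oxysterols were mixed. Of 12 genes of sterol storage and transfer (median -0.066), NCEH1, a hydrolase of cholesterol esters, stood at 11.12 and 10.79 with shGFP, 11.54 and 9.86 with sh50 and 6.95 and 7.01 with sh52. Both sh52 arrays lay far below the other 4, and the mean of both hairpins differed by -2.11 ± 0.46 (SE; limma, adjusted p = 0.456). TMEM97, an SREBP target that binds NPC1, differed by -0.85 ± 0.41, and by -0.51 without sh52 replicate 1. Of 10 genes of the non-sterol branches (median 0.095), PDSS1, of coenzyme Q synthesis, differed by -0.72 ± 0.29 and ICMT, of prenylated proteins, by -0.36 ± 0.21. In 6 genes of lipoprotein receptors and adaptors (median 0.045), the receptor genes LRP1 and VLDLR differed by 0.76 ± 0.41 and -0.26 ± 0.22, and VLDLR by -0.43 without sh52 replicate 1. Of 9 measured oxysterol and LXR partner genes (median 0.20), CH25H, which makes an oxysterol that activates LXR and holds back SREBPs, stood at 5.06 and 5.17 with shGFP, 5.93 and 7.16 with sh50 and 5.73 and 6.33 with sh52. LPCAT3, a membrane remodelling enzyme and an LXR target, stood at 10.42 and 10.27, 10.88 and 11.88, and 10.94 and 11.47. All 4 hairpin arrays were above both controls for CH25H and LPCAT3. They differed by 1.17 ± 0.37 and 0.94 ± 0.32 (adjusted p = 0.484 and 0.501), and by 1.32 and 1.08 without sh52 replicate 1.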

How the data were processed

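Total RNA of 6 U87MG samples was hybridised to Affymetrix HTA-2_0 arrays. Per the labels, the authors deposited RMA values from a core-exon analysis in Expression Console, and the submitters' processing notes name Transcriptome Analysis Console; no version or genome build is stated in these sources. The deposited values were read as log2, and the base is not stated, so folds hold only for base 2. Depth has no meaning for arrays, and 2 arrays per group limit the precision.

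Of 70523 features, 67528 were transcript clusters, and the 33764 with a mean over the 6 arrays at or above the median of 3.98 were tested. Platform annotation, updated through RefSeq tables, gave 1 symbol to 23781 clusters, several to 1543 and none to 42204. Groups were taken from the sample titles. limma 3.58.1 (R 4.3.3) fitted 3 group means over all 6 arrays, with eBayes and Benjamini-Hochberg adjustment over all tested clusters. The replicate comparison had the hairpin group as a term. The script was tested on simulated data. Alternatives covered the filter, the moderation, the normalization, the replicate block, the groups in the fit and leaving out each array.

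In the mean of both hairpins and the replicate comparison every member could be named; elsewhere the rule was the 4 members with the largest change, plus SAT1 and 2 genes per related list. Members counted at an unadjusted p outside this rule were named after their values were seen. The members and lists were chosen with earlier results of these data known. List medians cover every gene with a row.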

Additional observations from a re-analysis of the deposited data

Results flagged for a closer look

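INSIG1 and SC5D had estimates of opposite sign with the hairpins: both sh50 arrays lay below the mean of the shGFP arrays and both sh52 arrays above it. INSIG1 was 1.92 higher with sh52 than with sh50 on the log2 scale (limma, unadjusted p = 0.0289, adjusted p = 0.76), and 1.02 higher without sh52 replicate 1. SC5D was 0.367 higher (unadjusted p = 0.0579, adjusted p = 0.787). Neither difference passed the adjusted threshold.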

How the results depend on the processing

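For the named genes, 914 recomputed values kept their direction and their side of the threshold and 29 changed direction. Many of the 914 could not change direction. The filter, the moderation, the replicate block and the groups in the fit leave an estimate unchanged. So does leaving out an array of a group outside the comparison. In the replicate comparison, either array of a group gives the same value when left out. These counts are therefore no measure of stability. With 2 arrays per group, most changes came from leaving out an array, and the cause was not tested. Called clusters ranged from 0 to 1 for sh52 against shGFP and for sh52 against sh50, with 1 without sh52 replicate 2. For the replicate comparison they ranged from 0 (without any shGFP or sh50 array) to 18 (without either sh52 array), against 9, and numbered 4 without the hairpin group as a term. The replicate numbers were not shown to pair the arrays (correlations of deviations 0.387, 0.345 and 0.052), and the replicate block gave 0 calls in each of the 4 hairpin comparisons, as without it. The block raised the clusters at an unadjusted p under 0.05 (limma) in each, as from 2784 to 3503 for sh50 against shGFP. Some SEs fell with it (LSS with sh50 from 0.50 to 0.27, ABCA1 with sh52 from 0.31 to 0.19). Others rose (HMGCS1 with sh52 from 0.69 to 0.73). The SEs given above are without the block. Leaving out arrays, the median of the synthesis enzymes ranged from -0.148 to 0.154 with sh50 and from 0.108 to 0.307 in sh52 against sh50; that of the efflux and LXR genes ranged from -0.075 to 0.16 and from 0.0598 to 0.205. In the mean of both hairpins these medians ranged from 0.0475 to 0.181 and from -0.0184 to 0.122, and left-out arrays moved ACAT2 between -0.479 and 0.0345, PMVK between -0.368 and 0.132, FDPS between -0.0591 and 0.125, SC5D between -0.0104 and 0.168, INSIG1 between -0.276 and 0.683 and NR1H3 between -0.0184 and 0.122. HMGCS1 with sh50 ranged from -0.196 to 1.33. In the replicate comparison the ranges were HMGCS1 -0.956 to 0.634, IDI1 -0.268 to 0.157, FDPS -0.265 to 0.0187, MSMO1 -0.893 to 0.639, EBP -0.0077 to 0.0666, SREBF1 -0.267 to 0.324, SREBF2 -0.203 to 0.365, STARD4 -0.946 to 0.108 and NPC1 -0.132 to 0.805. EBP was -0.0382 there after quantile normalization.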

Other observations

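NCEH1, a hydrolase of cholesterol esters, had the largest difference from shGFP among the related genes named. With sh52 against shGFP it differed by -3.97 ± 0.53 (SE; limma, unadjusted p = 0.000374, adjusted p = 0.501), and with sh52 against sh50 by -3.72 ± 0.53 (adjusted p = 0.493). Both sh52 arrays (6.95 and 7.01) lay below each of the other 4, of which the lowest was sh50 replicate 2 at 9.86.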
